A study of Mus musculus with 12 samples.

Results

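Apol7a and Apol9a are the 2 genes of the deposited table, out of 982, whose symbol starts with Apol followed by a digit, and they were followed here over all 12 libraries. They belong to the apolipoprotein L family, which the GENCODE M21 mouse annotation lists as 14 genes, 13 of them on chromosome 15 and 12 of those protein coding. Expression of the other 11 family genes of that chromosome was not analysed here, and they enter only through their reference sequences. The libraries came from 6DT1, a mammary cancer line derived from a tumor of an MMTV-Myc mouse, in which the MMTV promoter drives Myc in mammary tissue. The control line (sgControl, labelled wild type) carried a scrambled CRISPR guide, and the lines sg1, sg2 and sg3 (labelled Resf1 KO) each carried a different guide against Resf1, the gene of retroelement silencing factor 1. Per the labels and the study's methods, all 4 lines were kept in DMEM with serum and puromycin, each edited line was grown out from a single cell, and RNA was taken from 3 dishes per line. The guide and the clone that carries it therefore cannot be told apart, and the spread between libraries is the spread between dishes. Resf1 itself was not analysed here, so the labels were not checked on the targeted gene.

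Apolipoprotein L proteins are lipid-binding proteins, some of which insert into membranes. The human member APOL1 circulates on high-density lipoprotein and lyses trypanosomes, whereas most other members act inside cells. The mouse family expanded by tandem duplication, and mouse Apol9a and Apol9b are known as interferon-induced genes whose products bind phosphatidylethanolamine. Interferon-induced transcription commonly acts through the interferon-stimulated response element, a short promoter motif bound by interferon regulatory factors.

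The promoter sequences of both genes are shown first, since the known regulation of the family runs through such elements. They are RefSeq sequences of GRCm38.p6 on the strand of the gene, 5′ to 3′, from 250 bases before to 50 bases after the start site. Capitals mark the response element core GAAANNGAAA, which in these genes is read on the opposite strand and so appears as TTTC, 2 bases and TTTC. The Apol7a window lies on the minus strand at chr15:77399061-77399360 and held no such core. The Apol9a window lies on the same strand at chr15:77411031-77411330 and held 2 cores, which began 59 and 53 bases before the start site and shared 4 bases.
Apol7a: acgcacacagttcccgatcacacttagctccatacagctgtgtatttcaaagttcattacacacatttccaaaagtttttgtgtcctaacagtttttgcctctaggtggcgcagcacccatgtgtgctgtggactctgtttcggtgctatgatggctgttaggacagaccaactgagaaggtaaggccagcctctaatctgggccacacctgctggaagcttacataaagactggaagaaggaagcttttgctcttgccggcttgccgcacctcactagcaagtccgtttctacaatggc
Apol9a: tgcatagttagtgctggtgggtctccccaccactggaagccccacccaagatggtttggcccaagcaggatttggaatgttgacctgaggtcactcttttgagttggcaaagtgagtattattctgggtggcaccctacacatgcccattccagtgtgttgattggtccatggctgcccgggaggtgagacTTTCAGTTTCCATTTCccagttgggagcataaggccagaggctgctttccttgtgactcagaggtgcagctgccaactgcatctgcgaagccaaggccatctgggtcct

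The core was searched on both strands, and the overlap was counted as 2 matches. At a second Apol9a start site (window chr15:77410985-77411284) the same cores began 105 and 99 bases upstream. Of the 11 family genes with a promoter window, 8 held a core, against 3.99% of the 27025 genes with a window of this length and 3.44% of the 32851 windows. All 16 matches over the 13 family windows, in which the cores of Apol9a and Apol9b are counted at both of their start sites, lay on the strand opposite to the gene. Apol9a, Apol9b, Apol7c and Apol7e held the overlapping pair, and Apol10a, Apol10b, Apol11a and Apol11b held 1 core each. Apol7a, Apol7b and Apol8 had no match in their windows. The stretches around the cores are printed to show that the element was identical in Apol9a and Apol9b and had other bases between and beside the TTTC blocks elsewhere in the family.
Apol9a: gtgagacTTTCAGTTTCCATTTCccagttg
Apol9b: gtgagacTTTCAGTTTCCATTTCccagttg
Apol7c: atggggcTTTCTCTTTCCTTTTCtgctttg
Apol7e: ttggggcTTTCTCTTTCGTTTTCtgctttg
Apol10a: atttttcTTTCACTTTCatgcatt
Apol11a: tttttacTTTCACTTTCatgcact
Apol11b: tttttacTTTCACTTTCatgcact
Apol10b: attttacTTTCATTTTCgtgcact

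A second interferon motif, the gamma-activated site TTCNNNGAA, was present in the windows of Apol10a, Apol11a and Apol11b and in 9.55% of all genes with a window. Neither Apol7a nor Apol9a held it. Aligned over their whole windows, the Apol7a and Apol9a promoters were 40.6% identical, whereas those of Apol9a and Apol9b had 0 mismatches in 278 aligned bases and differed only by the offset of their windows. The motif matches are a description of these letters in these windows, and binding was not measured.

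**Figure D1:**
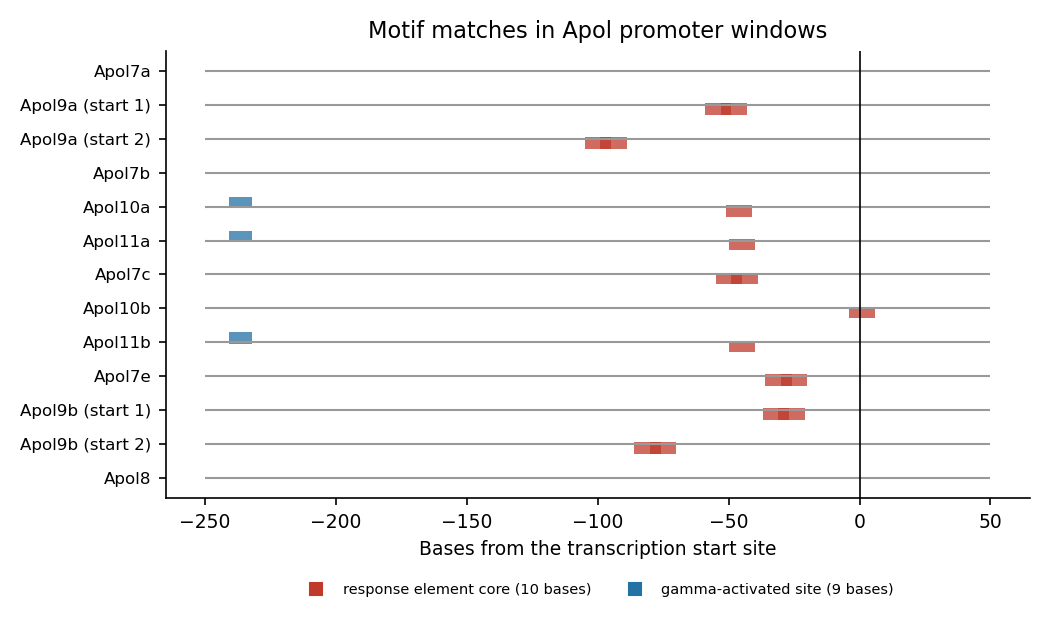
Matches of the response element core (red) and the gamma-activated site (blue) in the promoter windows of 11 Apol genes; the x axis gives bases from the transcription start site, each line is 1 window and darker red marks the overlap of 2 cores. Apol7a, Apol7b and Apol8 have no match, and the core lies upstream of the start site in every other gene but Apol10b, where it spans it.

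Apol7a (ENSMUSG00000010601, minus strand) was a low-level gene. Its normalized counts, which are estimated reads divided by a size factor of the library, were 42.2, 30.8 and 45.6 in the control line, and the sg2 libraries had 43.9, 38.8 and 41.8. The sg1 libraries had 80.8, 86.3 and 80.7, and the sg3 libraries 78.5, 55.2 and 63.9. Every sg1 and every sg3 library thus lay above the highest control library, and the sg2 libraries lay within the control range. The mean was 39.6 ± 7.73 for sgControl, 82.6 ± 3.22 for sg1, 41.5 ± 2.54 for sg2 and 65.8 ± 11.7 for sg3 (SD, n = 3 each). These values rested on 34 to 89 estimated reads per library, for which counting alone would give a coefficient of variation of 11.2% to 15.5% within a group. The observed coefficient was 3.90% in sg1 and 6.11% in sg2, under the counting value, and 19.5% in sgControl and 17.8% in sg3, above it.

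Apol9a (ENSMUSG00000057346, minus strand) was the more abundant gene and was high in a single line. Its normalized counts were 345.9, 330.3 and 290.0 in the control line and 953.3, 917.6 and 820.3 with sg1. The sg2 libraries had 355.6, 345.2 and 287.4, and the sg3 libraries 279.3, 323.1 and 314.4. The lowest sg1 library had more than the highest library of any other line, and the remaining 3 lines overlapped throughout. The mean was 322.1 ± 28.8 for sgControl, 897.1 ± 68.8 for sg1, 329.4 ± 36.7 for sg2 and 305.6 ± 23.2 for sg3 (SD, n = 3 each). At 240.0 to 946.2 estimated reads the counting share of the spread was smaller, 3.41% to 5.71%, against an observed coefficient of variation of 7.59% to 11.2%.

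**Figure D2:**
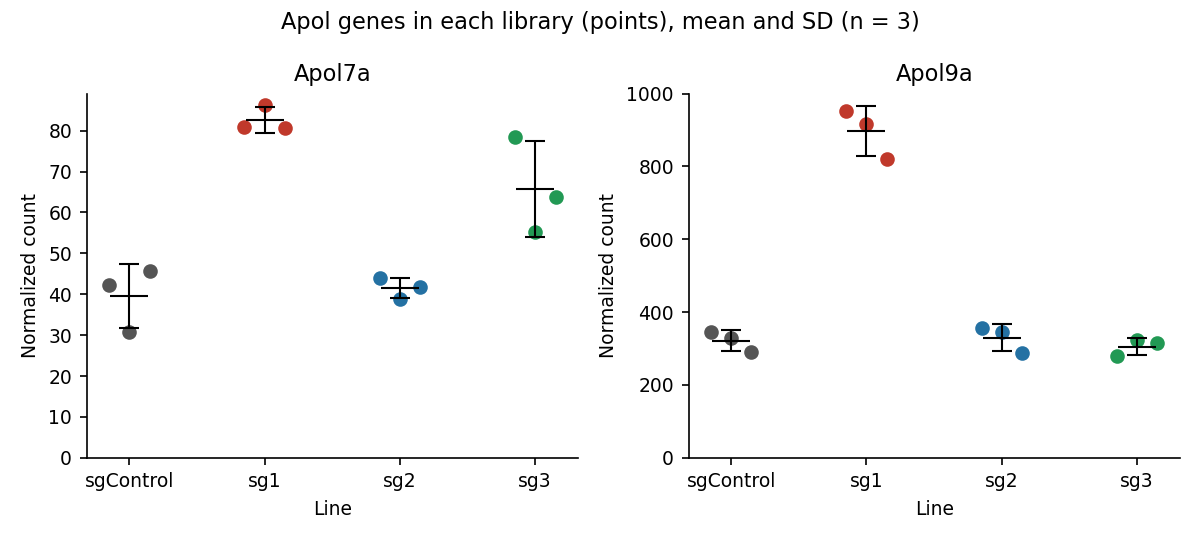
Normalized count of Apol7a (left) and Apol9a (right) in each library (points) by line, with the mean and SD of 3 libraries (bars); the y axes differ and start at 0. Apol7a is above all control libraries in sg1 and sg3, and Apol9a in sg1 alone, where it lies between 820.3 and 953.3.

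Per kilobase of the longest coding transcript (2390 bases for Apol7a, 1530 for Apol9a), the normalized count of Apol9a was above that of Apol7a in every line. In sgControl the level per kilobase was 210.5 ± 18.8 for Apol9a and 16.6 ± 3.24 for Apol7a. In sg1 it was 586.3 ± 45.0 and 34.6 ± 1.35, in sg2 215.3 ± 24.0 and 17.4 ± 1.06, and in sg3 199.8 ± 15.2 and 27.6 ± 4.91 (SD, n = 3 each). Averaged over all libraries and per length, Apol7a ranked above 13.1% and Apol9a above 61.1% of the deposited genes.

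With sg1 both genes rose. On the log2(value + 1) scale, which understates changes of low genes, Apol9a rose by 1.48 (SE 0.10, 95% interval 1.27 to 1.68, 2.78-fold) and Apol7a by 1.06 (SE 0.19, 95% interval 0.66 to 1.46, 2.09-fold). The limma adjusted p over all 982 genes was 6.21e-10 for Apol9a and 6.32e-05 for Apol7a. Such calls were common in this table, which appears to hold genes already selected as changed: 89.2% of genes passed with sg1, 50.1% as higher, and 49.9% had all sg1 libraries above all control libraries. The 2 calls are to be read against that background. Leaving out the feature ENSMUSG00000119584, which took 16.1% to 32.9% of the table sums, or rescaling in 3 other ways gave a log2 rise of 0.85 to 1.08 for Apol7a and 1.26 to 1.5 for Apol9a.

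With sg2 neither gene passed the test. The log2 difference was 0.09 for Apol7a (95% interval -0.31 to 0.48, limma adjusted p = 0.694) and 0.03 for Apol9a (95% interval -0.18 to 0.24, limma adjusted p = 0.787), and differences within these bounds remain possible in either direction. In the same contrast 59.7% of the deposited genes passed, 30.2% as higher, and 33.1% had all sg2 libraries above the control libraries. The sign of both differences was not stable, as scaling to the table total gave -0.11 for Apol7a and -0.17 for Apol9a.

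With sg3 the genes parted. Apol7a rose by 0.73 on the log2 scale (SE 0.19, 95% interval 0.33 to 1.12, 1.65-fold, limma adjusted p = 0.00417), whereas the Apol9a difference was -0.07 (95% interval -0.28 to 0.13, limma adjusted p = 0.510). The background in sg3 was 59.9% of genes past the threshold, 26.5% as higher and 27.1% with all libraries above the control. The Apol7a rise kept its side of the threshold in all 22 alternative analyses, with log2 values of 0.56 to 0.84.

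The lines carrying different guides also differed from one another. For Apol9a the level in sg1 was above sg2 by 1.45 and above sg3 by 1.55 on the log2 scale (limma adjusted p = 6.26e-10 and 2.38e-10), while sg2 and sg3 differed by 0.10 (95% interval -0.10 to 0.31, limma adjusted p = 0.503). For Apol7a sg1 was above sg2 by 0.98 (limma adjusted p = 0.000208), and sg2 was below sg3, at -0.64 (limma adjusted p = 0.0137). The Apol7a libraries of sg1 and sg3 did not overlap, but the share of all genes so separated was not counted. Their log2 difference of 0.34 (95% interval -0.06 to 0.73, limma adjusted p = 0.128) did not pass. It did not pass in any of the 22 alternatives either, where it ranged from 0.17 (table total without ENSMUSG00000119584) to 0.47 (without sg3 replicate 1, limma adjusted p = 0.0517), and it was 0.22 without sg3 replicate 2. The share of all genes past the threshold was 67.6% for sg1 against sg2, 65.7% for sg1 against sg3 and 30.5% for sg2 against sg3. A test of equality of the 3 guides gave a limma adjusted p of 0.000542 for Apol7a and 1.38e-10 for Apol9a, where 75.3% of all genes passed. The order of the Apol7a levels was therefore sg1, sg3, sg2 and sgControl, in which only the neighbours sg3 and sg2 passed the test, and without sg3 replicate 1 this difference was -0.51 and did not pass (limma adjusted p = 0.0742). For Apol9a it was sg1, sg2, sgControl and sg3, in which only sg1 and sg2 passed the test among neighbours.

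The ratio of the normalized counts of Apol9a to Apol7a within a library does not depend on the scaling and was taken to compare the 2 genes directly, without correction for length. It was 8.19, 10.7 and 6.36 in the control libraries, and 11.8, 10.6 and 10.2 with sg1. It was 8.10, 8.89 and 6.87 with sg2, and 3.56, 5.85 and 4.92 with sg3. Every sg3 ratio was below every ratio of the other lines, and the sg1 and control ratios overlapped. The means were 8.42 ± 2.18, 10.9 ± 0.838, 7.95 ± 1.02 and 4.78 ± 1.15 in the same order (SD, n = 3 each). By an exact two-sided permutation test on the log2 ratio, sg3 differed from each other line with p = 0.1, as did sg1 from sg2, and 0.1 is the smallest value that 3 against 3 allows. The exact permutation p was 0.3 for sg1 against sgControl and 0.9 for sg2 against sgControl. Adjusted over the 6 pairs these exact p-values were 0.15, 0.36 and 0.9, so no pair could reach 0.05 in this design.

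**Figure D3:**
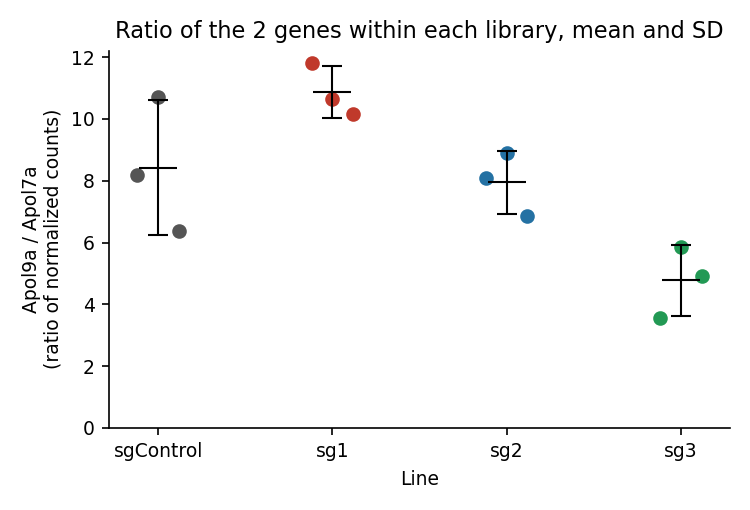
Ratio of the normalized counts of Apol9a to Apol7a in each library (points) by line, with the mean and SD of 3 libraries (bars). The 3 sg3 libraries, at 3.56 to 5.85, lie below all libraries of the other lines.

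Reads shared with other family members limit the values of both genes, by unequal amounts. The longest coding transcripts of Apol9a and Apol9b were 98.4% identical over 1422 aligned bases, with 23 mismatches, and 697 of the 1456 windows of 75 bases in the Apol9a transcript (47.9%) also occurred in Apol9b. Of the 2316 such windows of Apol7a, 186 (8.03%) occurred in any other gene, of which 107 were found in Apol7c, 93 in Apol7e and 75 in Apol7b. The window of 75 bases was chosen here, as the read length is not given in the sources used here. In the deposited values, the estimated reads of Apol7a were whole to within 0.05 reads in 9 of 12 libraries, and the exceptions were sgControl replicate 3 (0.188 reads from whole) and sg3 replicates 1 and 2 (0.410 and 0.382 reads from whole). In sg3 replicate 3 they were whole (0.016 reads from whole), at 63.9 normalized counts. The distance from a whole read does not measure how many reads were shared. The estimated reads of Apol9a were whole in 1 of 12 libraries, although 77.1% to 81.3% of all values between 200 and 1000 were whole in a library. How far the Apol9a level includes reads of Apol9b, or the Apol7a level those of its relatives, was not tested. The Apol7a and Apol9a transcripts were only 66.4% identical over 762 aligned bases.

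Both genes lie in the family cluster of chromosome 15, and most of the other deposited genes of that chromosome were also high in sg1. Of the 92 others, 76 were higher, 8 lower and 8 not called with sg1, at a median log2 change of 0.61 (quartiles 0.45 and 0.78). Of the 878 genes on other chromosomes, 406 were higher and 374 lower, at a median of 0.11. With sg2 the chromosome 15 median was 0.03, with 10 genes higher and 19 lower, beside -0.05 elsewhere, with 280 higher and 270 lower. With sg3 it was 0.0015, with 10 higher and 26 lower, beside -0.04 elsewhere, with 242 higher and 300 lower. The Apol9a rise with sg1 ranked 5th of 94 on the chromosome and 73rd of 982 in the table, and lay 0.86 above the chromosome median. The Apol7a rise ranked 15th and 132nd and lay 0.45 above that median. With sg3, Apol7a ranked 3rd of the 94 genes, 0.72 above their median, and Apol9a ranked 63rd. The level was not the same along the chromosome, as the 20 deposited genes nearest to the Apol genes had a median of 0.74 with sg1. Other members changed little in that line: Drosha changed by 0.09, -0.44 and -0.30 with sg1, sg2 and sg3, and Nadk2 by 0.02, -0.48 and -0.34. The distances from the chromosome median thus depend on which genes it covers. The part of this shared level in the Apol values of sg1 was not tested.

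**Figure D4:**
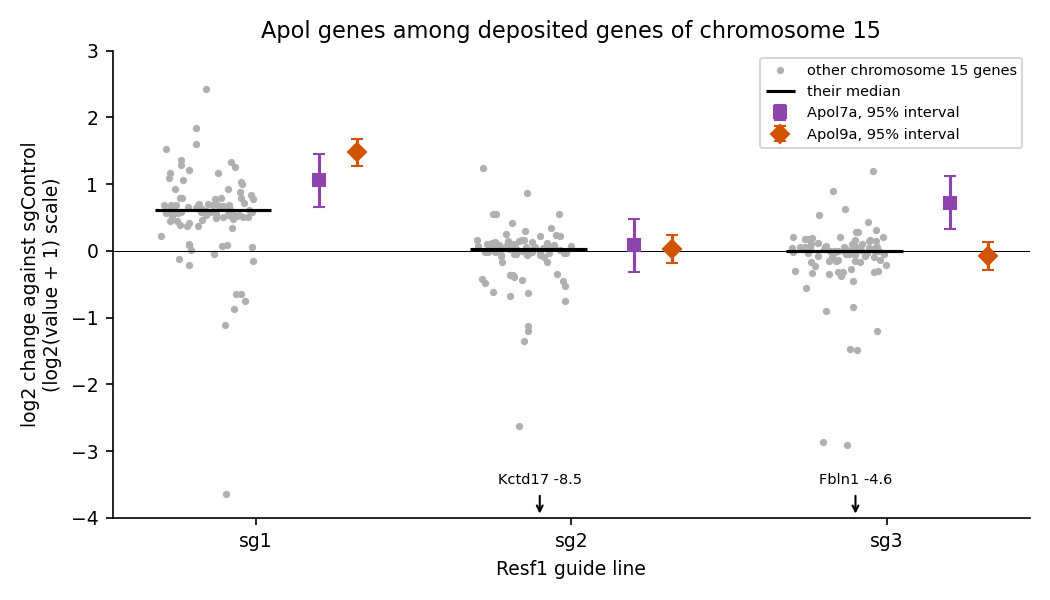
Log2 change against sgControl by guide for Apol7a and Apol9a (colored, with 95% intervals) beside the other 92 deposited genes of chromosome 15 (grey points, black line at their median). The grey points center at 0.61 in sg1 and near 0 in sg2 and sg3, where Kctd17 and Fbln1 lie below the axis; Apol7a is above the bulk of the points in sg1 and sg3.

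The nearest deposited genes on either side differed from each other. Plec, which encodes the cytoskeletal linker plectin and lies on the centromeric side with 48 protein-coding genes of the annotation in between, changed by 0.69 with sg1 (limma adjusted p = 7.97e-08), 0.09 with sg2 (limma adjusted p = 0.255) and 0.00083 with sg3 (limma adjusted p = 0.994). Gm49410, an unclassified feature on the other side, fell with every guide, at log2 changes of -1.11, -2.63 and -1.48 (limma adjusted p = 0.0485, 0.000361 and 0.0209), from a low control mean of 12.95 normalized counts. Among the 10 deposited genes on each side, 17 of 20 were higher and 2 lower with sg1, at a median of 0.74, beside 50.1% higher and a median of 0.20 over all genes. With sg2 it was 4 higher and 3 lower, at a median of 0.08, beside 30.2% of all genes higher. With sg3 it was 2 higher and 6 lower, at -0.01, beside 26.5% higher. The highest sg3 change among these 20 genes was 0.28, and the Apol7a change of 0.73 lay above it. The Apol9a change with sg1, 1.48, lay above the highest of the 20, at 1.37.

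**Figure D5:**
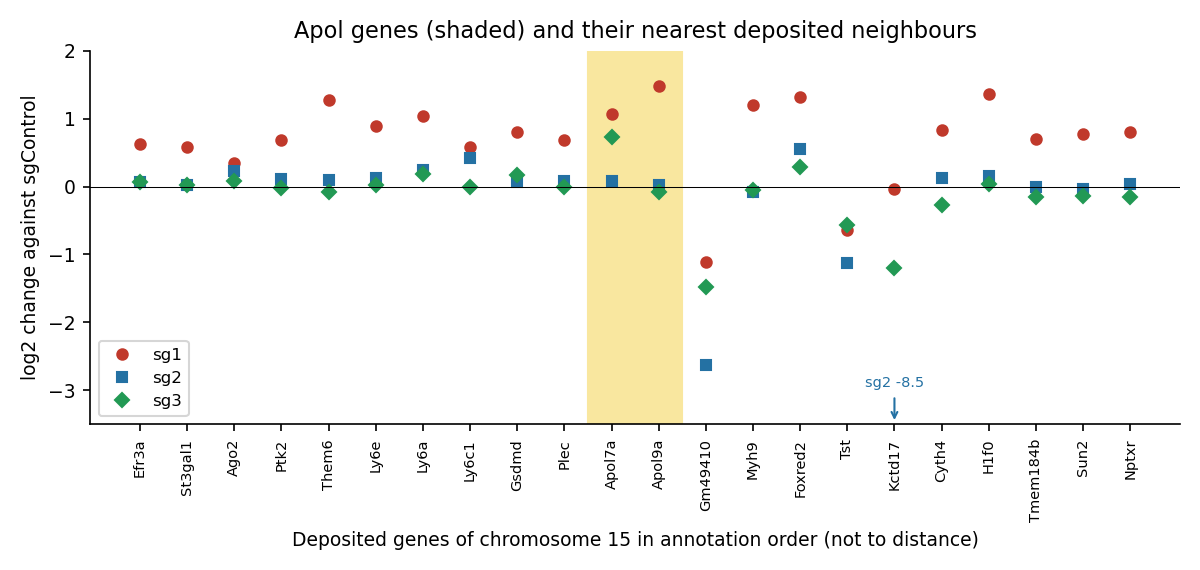
Log2 change against sgControl of Apol7a and Apol9a (shaded) and of the 10 nearest deposited genes on each side, in annotation order, for sg1 (circles), sg2 (squares) and sg3 (diamonds). With sg1, 17 of the 20 neighbours were higher; with sg3 Apol7a, at 0.73, stands above the neighbours, whose highest value is 0.28. The arrow gives the sg2 value of Kctd17, which is below the axis.

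The deposited genes whose log2 values ran most alike over the 12 libraries differed for the 2 genes. For Apol9a they were Cacnb3, a calcium channel subunit (Pearson r = 0.99), Ecm1 and Col18a1 of the extracellular matrix (both 0.99), Myh9, the non-muscle myosin heavy chain IIA (0.99), and Gramd4 (0.99), and Cacnb3, Myh9 and Gramd4 lie on chromosome 15. For Apol7a they were Arhgap27 (r = 0.95), Gm47015 (0.93), Piwil4, a PIWI-family protein of the piRNA pathway (0.93), Paqr4 (0.92) and Plat, the tissue plasminogen activator (0.92), none of them on chromosome 15. Arhgap27 changed by 0.96, 0.18 and 0.70 with sg1, sg2 and sg3 on the log2 scale, beside 1.06, 0.09 and 0.73 for Apol7a. The correlation between the Apol genes themselves was 0.66, which placed Apol9a 224th in the order for Apol7a and Apol7a 299th in the order for Apol9a. All of these correlations are descriptions over the same 12 libraries in 4 groups.

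The interferon-stimulated genes in the table were examined because mouse Apol9a is one. Of a list of 90 such genes, 9 were in the table, and with sg1 8 were higher, 0 lower and 1 not called, at a median log2 change of 0.85. Over all 982 genes, 492 were higher and 384 lower with sg1, at a median of 0.20. Ifit2, an interferon-induced RNA-binding protein, rose by 2.16 with sg1 from 33.9 ± 15.4 to 145.9 ± 13.03 normalized counts (SD, n = 3 each). Gbp4, an interferon-induced GTPase, rose by 1.76, and Trim30a, a regulator of innate signalling, rose by 1.85. Ly6e, a surface protein that restricts virus entry and lies on chromosome 15, rose by 0.89, and Ddx58, which encodes the RNA sensor RIG-I, rose by 0.56. Slfn8 (0.85), Oasl1 (0.51) and Herc6 (0.36) also passed, whereas Rsad2, the antiviral enzyme viperin, had a difference of 0.29 (limma adjusted p = 0.473). When every library was scaled to the same table total, Slfn8, Oasl1 and Herc6 no longer passed and the sg1 count was 5 of 9, where 353 of all 982 genes were higher.

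With the other guides the same 9 genes did not move one way. With sg2 3 were higher and 2 lower, at a median of 0.11, beside a median of -0.02 over all genes, of which 297 were higher and 289 lower. Slfn8 (0.76), Herc6 (0.27) and Ddx58 (0.19) rose, Trim30a (-2.41) and Oasl1 (-0.79) fell, and the Ifit2 difference was -0.39 (limma adjusted p = 0.208). The count of higher genes with sg2 was 0 at equal table totals, where 133 of all 982 genes were higher, and 4 under size factors without chromosome 15 genes, where 357 were. With sg3 3 were higher and 4 lower, at a median of 0.02, beside -0.03 over all genes, of which 260 were higher and 328 lower. Ifit2 rose by 1.23, Slfn8 by 1.59 and Herc6 by 0.44, while Trim30a (-3.6), Rsad2 (-2.7), Oasl1 (-1.83) and Gbp4 (-0.45) fell. Apol7a and Ifit2 both rose with sg1 and sg3 and passed in neither direction with sg2. Among the 9 genes only Ifit2 did so. Pltp, Lrp1 and Apobr of the lipoprotein list described below did so too, and the share of all genes with these calls was not counted. Under the table total scaling, however, Ifit2 fell with sg2, by 0.58.

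None of 16 interferon ligands and receptors was in the table, which does not say whether they were expressed or changed. Of 20 interferon signalling genes 1 was, Irf5, a transcription factor of the interferon regulatory family, which rose by 0.46 with sg1 (limma adjusted p = 6.32e-05) and 0.24 with sg3 (limma adjusted p = 0.0203), the latter lost when scaled to the table total, and differed by 0.13 with sg2 (limma adjusted p = 0.165). From a list of nucleic acid sensing genes, Ddx58 rose with sg1 as above and with sg2 by 0.19 (limma adjusted p = 0.0391, a call lost in 3 of 4 other scalings), and its sg3 difference was 0.11 (limma adjusted p = 0.207), which passed under size factors without chromosome 15 genes (0.20, limma adjusted p = 0.0296). Ifi204, a DNA sensor of the interferon-inducible p200 family, rose by 0.54 with sg1 (limma adjusted p = 0.000532) and by 0.30 with sg3 (limma adjusted p = 0.0380, lost under median-of-ratios scaling and at equal table totals), and differed by 0.22 with sg2 (limma adjusted p = 0.113). Of 14 partners of retroelement silencing 1 was in the table, Cbx5, which encodes heterochromatin protein HP1 alpha and lies on chromosome 15, and it rose with sg1 by 0.62, beside -0.01 with sg2 and 0.04 with sg3 (limma adjusted p = 0.897 and 0.482). It passed as lower with sg2 at equal table totals (-0.21) and as higher with sg3 under size factors without chromosome 15 genes (0.13).

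Of 34 genes for apolipoproteins and lipoprotein handling, 5 besides the Apol genes were in the table. With sg1 4 rose, where 50.1% of all genes were higher, namely the VLDL receptor gene Vldlr by 1.77, the phospholipid transfer protein gene Pltp by 1.17, the apolipoprotein B receptor gene Apobr by 0.51 and the endocytic receptor gene Lrp1 by 0.40. The Lpl difference was -0.32 (limma adjusted p = 0.107) and passed as lower in 3 of the other scalings, at -0.45 to -0.53. With sg2, where 30.2% of all genes were higher, Vldlr rose by 1.23 and the other 4 did not pass, although Pltp did under size factors without chromosome 15 genes (0.50, limma adjusted p = 0.0476). With sg3, where 26.5% were higher, Vldlr rose by 1.22, Pltp by 0.51, Lrp1 by 0.24 and Apobr by 0.23, and Lpl, the lipoprotein lipase gene, fell by 5.73. Under the table total scaling Lrp1 no longer passed with sg1 (0.19, limma adjusted p = 0.0601), which left 3 higher, and Vldlr alone still rose with sg3. The medians of the 5 genes were 0.51, 0.10 and 0.24 with sg1, sg2 and sg3.

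Of 11 mammary epithelial markers Krt8, Krt18 and Krt19 were in the table. Their summed normalized count lay between 12320 and 12770 for sgControl, 22940 and 25210 for sg1, 12010 and 12330 for sg2, and 9460 and 10700 for sg3. The sum was high in sg1, where both Apol genes were high and 49.9% of all genes had every library above the control. In sg3, where Apol7a was also high, it lay below every control library. Krt8 and Krt18 themselves lie on chromosome 15 and changed by 1.10 and 0.80 with sg1. Of 10 macrophage and dendritic cell markers only Cd68 was present, with 102.5 to 154.4 normalized counts in control libraries, 282.8 to 326.8 with sg1, 154.2 to 169.3 with sg2 and 138.5 to 158.8 with sg3. No marker of fibroblasts (0 of 8), lymphocytes (0 of 10) or endothelium (0 of 6) was in the table, which does not say whether they were expressed. The part of these markers in the Apol levels was not tested. The libraries came from dishes of a cell line and not from tissue. In such bulk libraries the share of cells that hold an RNA and its amount per cell cannot be told apart.

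The normalized counts of a library summed to between 2069298 and 2713951, and they hold only these genes, so the sequencing depth is unknown. No pair of replicates was a duplicate, as the chi-square per degree of freedom of their estimated reads was at least 12.9. The direction of calls over the whole table depended on the scaling. As deposited, 56.2%, 50.7% and 44.2% of the called genes were higher with sg1, sg2 and sg3, whereas scaling to the table total gave 45.7%, 21.9% and 27.4%. Size factors recomputed without chromosome 15 genes gave 57.4%, 63.2% and 64.7%.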

How the data were processed

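Total RNA libraries (TruSeq stranded) of 12 dishes of 6DT1 cells were measured, 3 for each of 4 lines. The submitters' processing notes name STAR 2.7.8a, Partek and DESeq2, and the genome that the study's methods name for RNA-seq is human. The mouse genome build, the annotation and the counting method are not given in the sources used here. The treatment text of the labels describes a knockdown in human cells and was not used. The deposited values are a normalized signal, which from the values themselves is an estimated read number over the size factor of its library (0.859 to 1.15). Taken as reads, 79.0% to 84.8% of the low values of a library were whole (tolerance 0.05) and the others were not, so whole reads were not recovered and no count model was used. An error in a size factor would shift both Apol genes of a library alike, and dividing shared reads can move signal between near-identical genes.

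Of 982 deposited genes 972 had a symbol in GENCODE M21 and 10 had none. All 12 libraries entered 1 limma fit (version 3.58.1, R 4.3.3) on log2(value + 1) with an intensity trend, robust empirical Bayes and 4 group means. P-values were two-sided, adjusted by Benjamini-Hochberg over 982 genes per contrast, with a threshold of 0.05. The fit was tested on simulated data. The mean of the 3 guides against sgControl (log2 0.62 for Apol7a, 0.48 for Apol9a) was given no test, as the table appears selected on such a contrast. Named genes are the Apol genes, the 5 genes most correlated with each, the members of the lists and the nearest deposited neighbour on each side. Drosha and Nadk2 are named as chromosome 15 genes with little change in sg1, and Kctd17 and Fbln1 only because they leave the axis of a plot. The Apol genes and the lists were chosen with earlier results of these data known. Alternatives were 4 scalings (2 of them added after seeing the data), a constant prior, a filter on genes under a mean of 50, 2 pseudocounts, fits to the compared groups only, a replicate block and leaving out each library.

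Pairing by replicate number was checked by correlating each library's departures from its group mean. Libraries of equal number correlated above 0.1 in all 3 pairs between sgControl and sg1 and between sgControl and sg2, and in 0 of 3 between sgControl and sg3, and no label says what the numbers stand for. RefSeq promoter windows and GENCODE transcripts were compared as described beside the results. The chromosome and order of the genes were taken from GENCODE M21, and the authors' build is unknown. One member of the nucleic acid sensing list is not reported here.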

Additional observations from a re-analysis of the deposited data

Results flagged for a closer look

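The effects of the 3 guides against sgControl differed from one another for both genes by the limma test of equality. For Apol7a (adjusted p = 0.000542) the log2 changes were 1.06 with sg1, 0.09 with sg2 and 0.73 with sg3, and the adjusted p ranged from 0.000214 to 0.00329 over 22 alternatives. For Apol9a (adjusted p = 1.38e-10) they were 1.48, 0.03 and -0.07, and the adjusted p was at most 3.45e-07 over the alternatives. Such differences between guides were found for 75.3% of the deposited genes, and the guide cannot be told apart from the clone that carries it.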

How the results depend on the processing

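Over 22 alternatives the rises of Apol7a with sg1 (0.85 to 1.17) and sg3 (0.56 to 0.84) and of Apol9a with sg1 (1.26 to 1.54) kept their direction and their side of the threshold. The differences with sg2, which passed nowhere, changed sign: median-of-ratios scaling gave -0.011 for Apol9a, and the table total gave -0.11 for Apol7a and -0.17 for Apol9a. Size factors without chromosome 15 genes, added after seeing the data, gave 0.016 for Apol9a with sg3. Leaving out each library gave -0.080 to 0.19 for Apol7a and -0.043 to 0.12 for Apol9a with sg2. The difference of Apol7a between sg2 and sg3 ranged from -0.76 to -0.51 and no longer passed without sg3 replicate 1 (limma adjusted p = 0.0742), where the fit held fewer samples. The counts of genes past the threshold stayed within 1.5 times: 773 to 893 for sg1, 454 to 671 for sg2, 452 to 661 for sg3 and 675 to 782 for the equality of the guides. The median change over all genes with sg1 was 0.20 as deposited and -0.01 at equal table totals.

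The fit with the replicate number as a block, for which the pairing is a hint from the data, gave log2 changes of 1.06, 0.09 and 0.73 for Apol7a and 1.48, 0.03 and -0.07 for Apol9a with sg1, sg2 and sg3. It changed no call of either gene and gave 893, 671 and 661 genes past the threshold, beside 876, 586 and 588. Apol7a rests on at most 89 estimated reads per library, which limits the precision of its differences between lines.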
